A study of Mus musculus with 2 samples.

Results

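The 10 genes described here encode the main enzymes that remove superoxide and peroxides in mouse cells: the superoxide dismutases Sod1 and Sod2, catalase (Cat), the glutathione peroxidases Gpx1 and Gpx4, and the peroxiredoxins Prdx1, Prdx2, Prdx3, Prdx5 and Prdx6. They were chosen by gene symbol, all 10 were found among the 24421 genes of the count tables, and all 10 passed the filter on low values. Liver RNA came from male C57BL/6 mice that started a high-fat diet (HFD) at 6 weeks of age and stayed on it for 12 weeks. Both genotypes carry floxed Rora alleles. The control is RORα f/f, and the second genotype, RORα f/f:Alb-Cre, adds Cre recombinase and carries the label of a liver-specific knockout (LKO). Cre driven by the albumin promoter acts in hepatocytes, so Rora in other liver cells is not its target. Each genotype had 1 library. The sources used here do not say how many animals gave its RNA. No difference below therefore has a replicate check, and no test or p-value was computed.

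Superoxide dismutases turn superoxide into hydrogen peroxide. Catalase breaks peroxide down in peroxisomes, glutathione peroxidases reduce it with glutathione, and peroxiredoxins reduce it with a reactive cysteine that thioredoxin then recharges. Hepatocytes make these enzymes in large amounts, since fatty acid oxidation in peroxisomes and mitochondria, cytochrome P450 turnover and urate breakdown all yield superoxide or peroxide. RORα is a nuclear receptor that binds DNA as a monomer, and the series asked which liver genes depend on it in steatohepatitis.

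Gpx1 and Gpx4 are selenoproteins, and their coding sequences are shown because they share one mode of translation while their transcripts differed in opposite directions below. Each holds 1 in-frame TGA before its stop codon, annotated as selenocysteine, the residue that does the chemistry. In Gpx1 it is codon 47, in exon 1 of 2 (chr9:108339451-108339453, mm10). In Gpx4 it is codon 73 of the principal transcript, in exon 3 of 7 (chr10:80054737-80054739, mm10). The coding strand is given with 24 bases on either side, from GENCODE M21 transcripts, with the selenocysteine codon in capitals.
Gpx1: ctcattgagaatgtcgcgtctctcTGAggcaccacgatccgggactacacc
Gpx4: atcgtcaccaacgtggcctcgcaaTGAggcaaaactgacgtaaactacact

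None of the 10 scavenging enzymes was 1.5-fold higher or lower in the library labelled LKO, where the shares past this fold among 11137 measured genes were 10.5% upward and 9.76% downward, each with a counting interval that excluded a ratio of 1. At those shares about 1 of 10 genes would be past the fold in each direction, so the count alone sets the enzymes apart from no other genes. Prdx1, Prdx5, Sod1 and Prdx2 differed more than most measured genes, of which 21.3%, 23.7%, 29.4% and 39.3% had a larger difference, up or down. Measured genes had a mean of at least 1 CPM and a summed count of at least 20. CPM are counts scaled to library size, here with TMM factors (a trimmed mean of gene-wise ratios), so that ratios are read against the middle of all genes. The highest ratio was that of Gpx4, at 1.199, and the lowest that of Prdx1, at 0.674. The median log2 ratio of the 10 genes was −0.20, beside −0.0032 over all measured genes. With scaling by total count, every log2 ratio would be 0.42 higher. Then 34.6% of genes would be at least 1.5-fold higher and 2.53% at least 1.5-fold lower, and Gpx4 alone among the 10 would pass 1.5-fold. The order of the genes by ratio does not depend on the scaling of the libraries.

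The 10 genes summed to 714006 control counts, 0.557% of that library, and to 921511 counts, or 0.699%, in the library labelled LKO. On the TMM scale these sums were 6441 and 6043 CPM. Cat, Gpx1 and Prdx6 made up most of them, at 31.4%, 24.97% and 20.8% of the counts of the 10 genes in the control and 36.3%, 22.6% and 19.7% in the library labelled LKO. The smallest count of any of the 10 was 5291, and each ratio's 95% exact interval extended at most 1.04-fold to each side. These intervals cover counting error only and carry nothing of the spread between animals. PCR copies are not independent molecules, so the intervals can be too narrow even for that error.

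Per kilobase of the principal transcript, Gpx1 stood highest in both libraries. Its level was 1500.5 CPM per kilobase in the control and 1272 in the library labelled LKO. Cat followed at 775 and 840.0, Sod1 stood at 593 and 429, Prdx6 at 561 and 498, and Gpx4 at 457 and 547. Thus Gpx4 ranked 5 of the 10 genes in the control and 3 in the library labelled LKO, and Sod1 the reverse. Prdx1 ranked 6 in both, at 166 and 112 CPM per kilobase, Prdx3 stood at 63.5 and 65.3, Prdx2 at 45.4 and 35.1, and Prdx5 at 44.0 and 30.3. Sod2 was lowest at 8.14 and 8.12, a value that rests on a transcript of 5861 bases with a long untranslated end. With the shortest annotated transcript of the same coding length in place of the principal one, Prdx1 would stand at 434 and 293 CPM per kilobase, still at rank 6. No replicate spread tells which neighbours in this order differ.

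**Figure D1:**
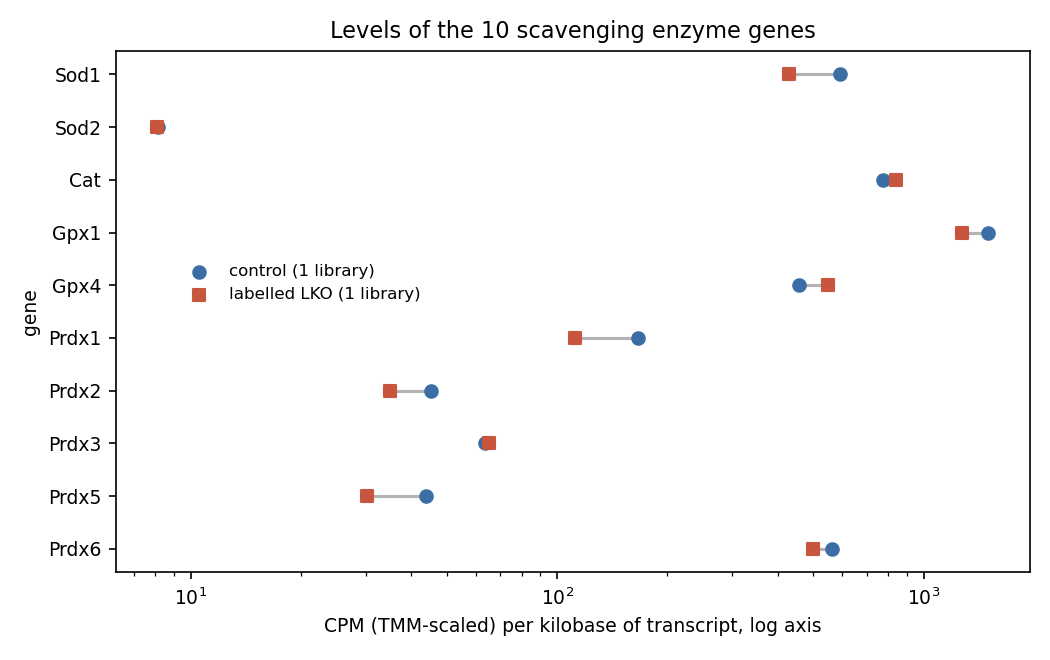
Level of each scavenging enzyme gene in the control library (circles) and the library labelled LKO (squares), in TMM-scaled CPM per kilobase of the principal transcript on a log axis, 1 library each. Gpx1 stands highest at 1500.5 and 1272 and Sod2 lowest at 8.14 and 8.12, and the longest shifts to the left are those of Prdx1, Prdx5 and Sod1.

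Of the superoxide dismutases, the cytosolic enzyme was lower and the mitochondrial one nearly equal. Sod1, the copper and zinc enzyme, lies on the plus strand of chromosome 16 from 90220754 to 90226329 (mm10, as for all genes below). Its counts were 42139 in the control and 41915 in the library labelled LKO, or 380 and 275 CPM. This is a level 1.38-fold (interval 1.36 to 1.40) lower in the library labelled LKO, with a log2 ratio of −0.47. Sod1 has the shortest principal transcript of the 10 genes, 641 bases, and its log2 ratio was −0.20 after removal of a trend of the ratio with transcript length and GC content. Sod2, the manganese enzyme of the mitochondrial matrix, lies on the plus strand of chromosome 17 from 13006846 to 13040063. Its 5291 and 7255 counts gave 47.7 and 47.6 CPM, a ratio of 0.997 whose interval of 0.962 to 1.03 included 1. Of all measured genes, 99.2% differed by more between the libraries than Sod2 did. With total-count scaling its log2 ratio was 0.415.

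Catalase, the peroxisomal enzyme and the most abundant of the 10 genes by counts, was slightly higher in the library labelled LKO. Cat lies on the minus strand of chromosome 2 from 103453849 to 103485160 and ranked 60 by mean CPM among all genes. It had 224403 and 334695 counts, or 2024 and 2195 CPM. The ratio was 1.08 (interval 1.08 to 1.09) and the log2 ratio 0.12, with 61.5% of measured genes below it.

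The glutathione peroxidases went opposite ways. Gpx1, the abundant peroxidase of cytosol and mitochondria, lies on the plus strand of chromosome 9 from 108338903 to 108340343. It had 178302 and 207978 counts, or 1608.5 and 1364 CPM, 1.18-fold (interval 1.17 to 1.19) lower in the library labelled LKO. Gpx4, which reduces lipid peroxides within membranes and so protects cells from ferroptosis, lies on the plus strand of chromosome 10 from 80047166 to 80056439. It had 48546 and 80051 counts, or 438 and 525 CPM, 1.199-fold (interval 1.19 to 1.21) higher. The log2 ratios were −0.24 and 0.26, and with total-count scaling that of Gpx1 was 0.18 and that of Gpx4 0.68. Within the control library there were 0.272 Gpx4 counts for each Gpx1 count, and 0.385 in the other. That is a 1.41-fold (interval 1.40 to 1.43) difference in their proportion, which no scaling of libraries alters.

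The peroxiredoxins spread from a lower group to values near equality. Prdx1, the main cytosolic member of the typical 2-Cys class, lies on the plus strand of chromosome 4 from 116685544 to 116700822. Its 42231 and 39178 counts gave 381 and 257 CPM, 1.48-fold (interval 1.46 to 1.503) lower in the library labelled LKO, and 10.4% of measured genes had a lower ratio. Prdx5, an atypical 2-Cys enzyme found in mitochondria, peroxisomes and cytosol, lies on the minus strand of chromosome 19 from 6906697 to 6910106. It stood at 6152 and 5824 counts, or 55.5 and 38.2 CPM, 1.45-fold (interval 1.40 to 1.51) lower. Both were short of the 1.5-fold threshold, with log2 ratios of −0.57 and −0.54.

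Prdx2, a cytosolic 2-Cys enzyme that is also abundant in red blood cells, lies on the plus strand of chromosome 8 from 84969587 to 84974834. It had 8112 and 8617 counts, or 73.2 and 56.5 CPM, 1.29-fold (interval 1.26 to 1.33) lower. Prdx6, the 1-Cys enzyme, which is recharged by glutathione and not by thioredoxin, lies on the minus strand of chromosome 1 from 161240112 to 161251219. It had 148431 and 181283 counts, or 1339 and 1189 CPM, 1.13-fold (interval 1.12 to 1.13) lower. Prdx3, the 2-Cys enzyme of the mitochondrial matrix, lies on the minus strand of chromosome 19 from 60864051 to 60874556. Its 10399 and 14715 counts gave 93.8 and 96.5 CPM, a ratio of 1.03 (interval 1.003 to 1.05). So the thioredoxin-dependent cytosolic members Prdx1 and Prdx2 were lower and the matrix member Prdx3 nearly equal. Prdx5, which is also found in mitochondria, was lower to nearly the same degree as Prdx1. With total-count scaling Prdx2, Prdx6 and Prdx3 had log2 ratios of 0.05, 0.25 and 0.46. After removal of the length and GC trend Prdx3 stood at 0.25.

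**Figure D2:**
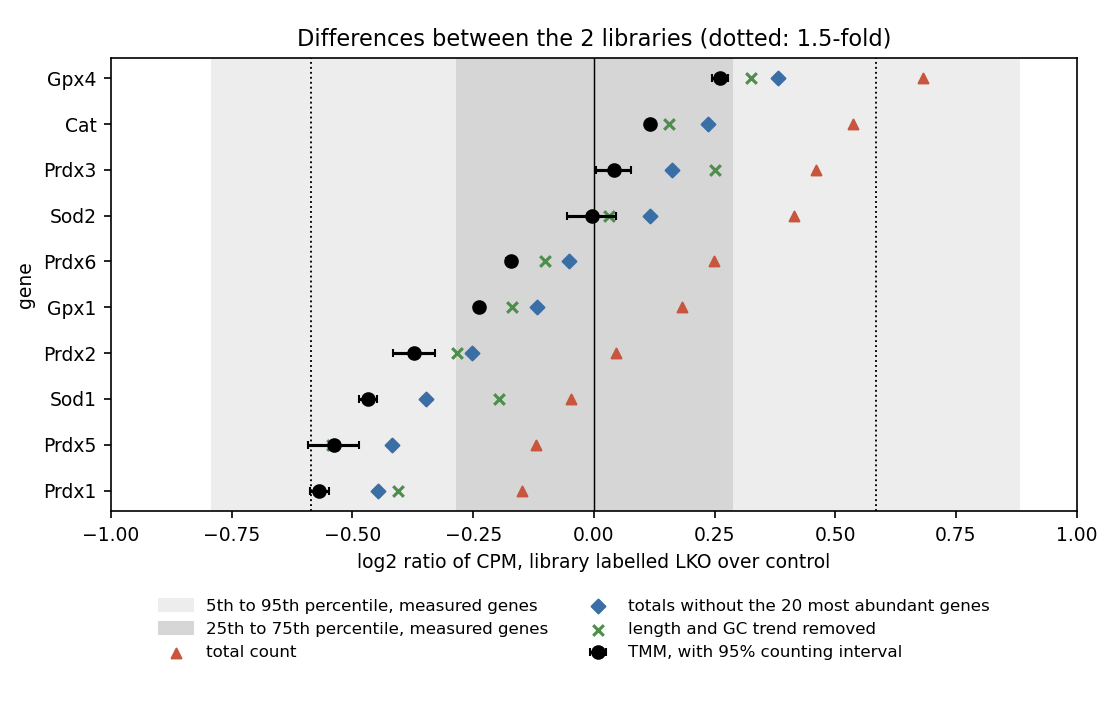
Log2 ratio of CPM (library labelled LKO relative to control) for the 10 genes, with TMM scaling and its 95% counting interval (black), total-count scaling (triangles), totals without the 20 most abundant genes (diamonds) and after removal of a length and GC trend (crosses). With TMM no gene reaches the dotted 1.5-fold lines, and the values run from −0.57 for Prdx1 to 0.26 for Gpx4, inside the band from the 5th to the 95th percentile of measured genes.

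Proportions between members within a library are free of the scaling question, so they were compared next. Each interval here is a normal approximation on the log scale and covers counting error only. Sod2 counts per Sod1 count were 0.126 in the control and 0.173 in the library labelled LKO, 1.38-fold (interval 1.33 to 1.43) higher. Prdx3 counts per Prdx1 count were 0.246 and 0.376, 1.53-fold (interval 1.48 to 1.57) higher. Sod2 and Prdx3 thus took a larger share beside Sod1 and Prdx1 in the library labelled LKO. Prdx5, also found in mitochondria, did not share this. Prdx3 counts per Prdx5 count were 1.69 and 2.53, 1.49-fold (interval 1.43 to 1.56) higher. These proportions are not free of the length and GC trend. With it removed, log2 ratios were −0.20 for Sod1 and 0.03 for Sod2, and −0.41 for Prdx1 and 0.25 for Prdx3.

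Cat counts per Gpx1 count were 1.26 and 1.61, a 1.28-fold (interval 1.27 to 1.29) difference in favour of the peroxisomal enzyme. The widest gap among the 10 genes was between Gpx4 and Prdx1, with 1.15 and 2.04 Gpx4 counts per Prdx1 count, 1.78-fold (interval 1.75 to 1.81) apart. Some pairs kept nearly the same proportion. Prdx1 counts per Prdx5 count were 6.86 and 6.73, a fold of 0.980 (interval 0.943 to 1.02), and Sod2 counts per Prdx3 count were 0.509 and 0.493, a fold of 0.969 (interval 0.928 to 1.01).

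**Figure D3:**
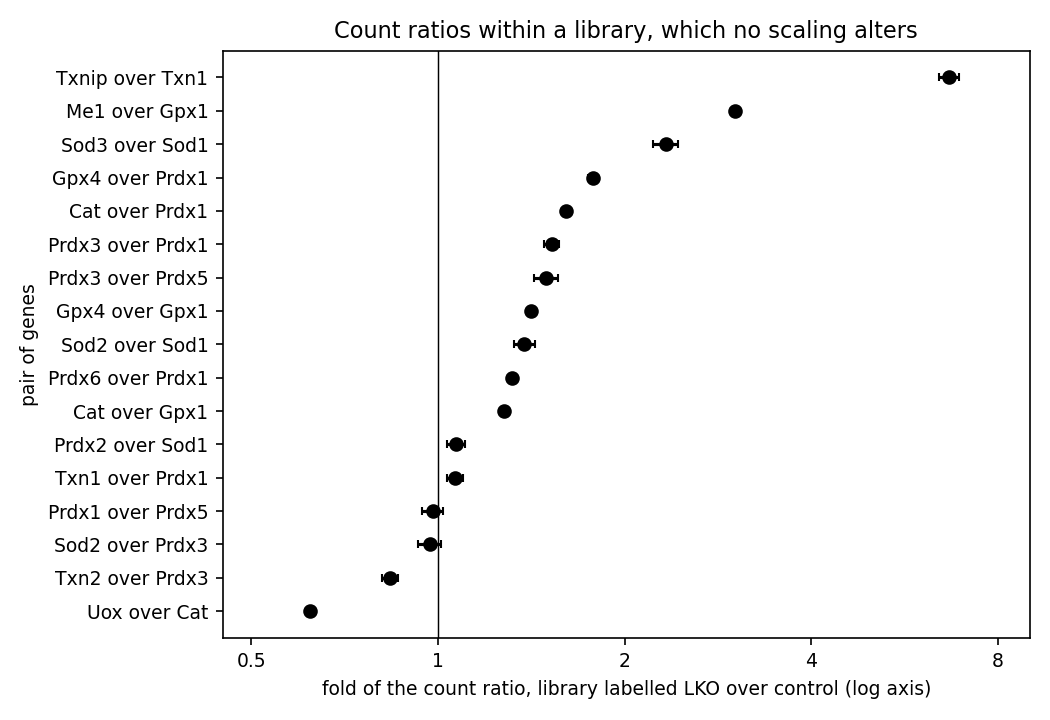
Fold of the count ratio of each gene pair, library labelled LKO over control, on a log axis with 95% counting intervals, 1 library per genotype. Prdx1 over Prdx5 and Sod2 over Prdx3 lie at 1 within their intervals, Gpx4 over Prdx1 is 1.78-fold higher, and pairs with the supporting genes Me1 and Txnip lie farther out.

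Promoter windows from RefSeq (GRCm38.p6, 250 bases before to 50 after a start site) were found for 9 of the 10 genes, 12 windows in all, and none was found for Prdx6. Windows were searched on both strands for AGGTCA, the core half-site that RORα and other nuclear receptors bind, and for TGACNNNGC, the core of the antioxidant response element. The motifs share the letters TGAC on opposite strands, so matches could overlap, though none did here. AGGTCA was found in 3 of the 12 windows, 1 each of Gpx4, Cat and Prdx3, and in 16.3% of all 32851 windows of this length in the table. TGACNNNGC was found in 2 of the 12, those of Sod1 and Prdx1, and in 12.4% of all windows. All matches are shown. Gpx4, Cat and Prdx3 were the 3 genes with the highest log2 ratios. Sod1 and Prdx1 were among the 3 lowest, and Prdx5, the other of these 3, held neither motif. The motifs were chosen after these values were known, so the order of the genes cannot serve as a check of them. A relation of motifs and ratios would rest on 9 genes and was not tested. The other 3 windows of Gpx4 held neither motif. A match is a run of letters, not a shown binding site.

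Each stretch is given 5′ to 3′ on the gene's own strand with 20 bases on either side and the match in capitals. The Gpx4 stretch is chr10:80053923-80053968 on the plus strand, with the match starting 68 bases before a start site that lies within an intron of longer Gpx4 transcripts. The Cat stretch is chr2:103485332-103485377 on the minus strand (match 204 bases before the start), and the Prdx3 stretch chr19:60874703-60874748 on the minus strand (190 bases before). The Sod1 stretch is chr16:90220686-90220734 on the plus strand (56 bases before), and the Prdx1 stretch chr4:116685446-116685494 on the plus strand (133 bases before). In Gpx4, Sod1 and Prdx1 the motif reads on the opposite strand, so its reverse complement is in capitals.
Gpx4: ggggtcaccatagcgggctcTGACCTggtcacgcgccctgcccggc
Cat: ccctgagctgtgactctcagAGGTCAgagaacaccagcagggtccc
Prdx3: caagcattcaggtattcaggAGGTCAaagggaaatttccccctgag
Sod1: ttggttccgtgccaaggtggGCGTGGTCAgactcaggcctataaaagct
Prdx1: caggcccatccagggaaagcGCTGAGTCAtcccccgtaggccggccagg

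Other genes of the same families were few or low in liver. Of 9 listed, 4 were measured, and Sod3 and Prdx4 were past 1.5-fold, 1 in each direction. Of all measured genes, 10.5% were higher and 9.76% lower by this fold. Sod3, the secreted dismutase, had 2877 and 6664 counts and was 1.68-fold (interval 1.61 to 1.76) higher in the library labelled LKO. Against Sod1 its proportion was 2.33-fold (interval 2.22 to 2.44) higher. Prdx4, the peroxiredoxin of the endoplasmic reticulum, had 3317 and 2983 counts and was 1.53-fold (interval 1.46 to 1.61) lower. It was short of 1.5-fold with total-count scaling (1.14-fold lower), with totals that omit the 20 most abundant genes (1.41-fold) and with the length and GC trend removed (1.31-fold). Gpx3, the plasma glutathione peroxidase, and Gpx6 had log2 ratios of −0.05 and −0.43.

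Among 10 genes that recharge or restrain peroxiredoxins, 2 were higher and 0 lower by 1.5-fold, beside 10.5% and 9.76% of all measured genes. Txnip, which binds and inhibits thioredoxin, had 7455 and 49150 counts, or 67.3 and 322 CPM, and was 4.79-fold (interval 4.68 to 4.91) higher in the library labelled LKO. Sesn2, a stress-induced sestrin, was 1.91-fold (interval 1.67 to 2.20) higher. The cytosolic thioredoxin Txn1, the reductant of Prdx1 and Prdx2, had 10349 and 10221 counts and was 1.39-fold (interval 1.36 to 1.43) lower. There were 0.245 and 0.261 Txn1 counts per Prdx1 count. Txnip counts per Txn1 count were 0.720 and 4.81, which is 6.68-fold (interval 6.44 to 6.92) higher. Txn2, the mitochondrial thioredoxin, and Txnrd3, a thioredoxin glutathione reductase, had log2 ratios of −0.22 and −0.50. The list median was 0.05.

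In the glutathione and glutaredoxin list, 0 of 10 measured members were past 1.5-fold in either direction, beside 10.5% of all measured genes upward and 9.76% downward. Log2 ratios ran from −0.41 for Abcb10, a mitochondrial transporter, to 0.18 for the glutaredoxin Glrx. The glutaredoxins Glrx5 and Glrx3 stood at 0.14 and −0.29. Slc25a39, which carries glutathione into mitochondria, had the highest level per kilobase of this list, at 287 and 292 CPM per kilobase.

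NADPH supply, on which both glutathione and thioredoxin reduction draw, had 4 of 11 members higher by 1.5-fold and 1 lower. The shares over all measured genes were 10.5% and 9.76%. Me1, the cytosolic malic enzyme that also feeds lipogenesis, had 38709 and 135997 counts and was 2.55-fold (interval 2.53 to 2.58) higher, and Tkt, transketolase, was 1.75-fold (interval 1.69 to 1.80) higher. Nnt, the mitochondrial transhydrogenase, had 12291 and 7713 counts and was 2.19-fold (interval 2.13 to 2.26) lower. G6pdx, the entry enzyme of the pentose phosphate pathway, had a log2 ratio of −0.34, and Idh1, the cytosolic isocitrate dehydrogenase, −0.25. With total-count scaling both turn positive, at 0.08 and 0.17. Me1 counts per Gpx1 count were 0.217 and 0.654.

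Of 11 measured genes that make selenoproteins, 0 were higher and 1 lower by 1.5-fold, beside 10.5% and 9.76% of all measured genes. Their median was −0.06 (log2). Sepp1, the selenium carrier that liver secretes, had 906707 and 1292325 counts and a ratio of 1.04. Sephs2, which makes the selenium donor, stood at 139 CPM in both libraries. Scly, Sepsecs and Sars had log2 ratios of 0.26, 0.18 and −0.18. Pstk, which phosphorylates the charged transfer RNA of selenocysteine, was 1.71-fold (interval 1.44 to 2.04) lower from 290 and 233 counts. This was short of 1.5-fold with total-count scaling (1.28-fold lower) and with the length and GC trend removed (1.46-fold).

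Among 12 other selenoproteins 0 were higher and 2 lower by 1.5-fold, beside 10.5% and 9.76% of all measured genes. Their median was −0.28 (log2). Vimp and Selk, both of the endoplasmic reticulum membrane, were lower. For Vimp the difference was 2.23-fold (interval 1.962 to 2.53) and for Selk 1.54-fold (interval 1.45 to 1.64). Selk was short of 1.5-fold with total-count scaling (1.15-fold lower), with totals that omit the 20 most abundant genes (1.42-fold) and with the trend removed (1.37-fold). Selo and 2700094K13Rik had log2 ratios of 0.53 and 0.43. Msrb1, a methionine sulfoxide reductase, and Dio1, a deiodinase, were the most abundant per kilobase, with log2 ratios of −0.30 and 0.02. Gpx4, at 0.26, lay above the median of these selenoproteins and Gpx1, at −0.24, near it.

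None of 10 genes listed under copper and manganese supply to the dismutases was past 1.5-fold, where 10.5% of all measured genes were higher and 9.76% lower. The list also holds Slc25a39, given above as a glutathione carrier, and Mtch2, for which no metal supply was shown here. Their log2 ratios ran from −0.44 for the mitochondrial membrane protein Mtch2 to 0.53 for the copper pump Atp7b. The copper chaperone Atox1 stood at −0.29, the lowest of the list apart from Mtch2, and Slc39a14, a manganese and zinc importer, at 0.27.

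Peroxisomal oxidases make hydrogen peroxide beside catalase. Of 10 measured, 6 had log2 ratios above 0 and 4 below, around a median of 0.0035, where 49.7% of all measured genes were above 0. Urate oxidase Uox was 1.48-fold (interval 1.47 to 1.497) lower, and Uox counts per Cat count were 0.390 and 0.243. With total-count scaling the log2 ratio of Uox was −0.15. The glycolate oxidase Hao1 had a log2 ratio of −0.47, or −0.05 with total-count scaling. Its relative Hao2 had 12 and 459 counts and was above the filter on low values by its level in the library labelled LKO alone, so its call as higher was fixed by the filter.

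Peroxisome import and biogenesis had 1 of 15 genes higher by 1.5-fold and 0 lower, beside 10.5% and 9.76% of all measured genes. The list median was 0.19 (log2). The count of higher genes was 8 with total-count scaling and 6 with totals that omit the 20 most abundant genes, where 34.6% and 15.3% of all measured genes were higher. Pex11a, which drives peroxisome division, was 2.36-fold (interval 2.24 to 2.49) higher. Pex26 and Pex16 lay just inside the threshold, at 1.496-fold and 1.48-fold higher, and Pex2 and Pex10 had log2 ratios of −0.24 and −0.20. Outside peroxisomes, 1 of 10 measured sources of superoxide and peroxide was higher by 1.5-fold and 2 lower, around a median of −0.30 (log2). The shares over all measured genes were 10.5% and 9.76%. Maoa, a monoamine oxidase, was 1.55-fold (interval 1.30 to 1.85) higher. Cyba, a subunit of the phagocyte NADPH oxidase, was 2.19-fold (interval 1.94 to 2.46) lower, and Ero1lb, an oxidase of the endoplasmic reticulum, 1.66-fold (interval 1.56 to 1.77) lower, or 1.24-fold with total-count scaling. Nox4 and Maob had log2 ratios of −0.14 and −0.10.

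Targets of the stress factor NRF2 lay on both sides, with 5 of 16 measured members higher by 1.5-fold and 1 lower. The shares over all measured genes were 10.5% and 9.76%. Of the 16 targets, 6 also belong to lists above. Nqo1, a quinone reductase, was 2.12-fold (interval 1.81 to 2.49) higher from 211 and 614 counts. Gstm3 and Gstm1, glutathione transferases, were 1.93-fold and 1.72-fold higher, and Gsta2 was 2.53-fold lower. These transferases have close copies, so reads can be split between them. Hmox1, heme oxygenase, had a log2 ratio of −0.37. The list median was 0.08, and Prdx1, itself known as an NRF2 target, stood at −0.57.

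**Figure D4:**
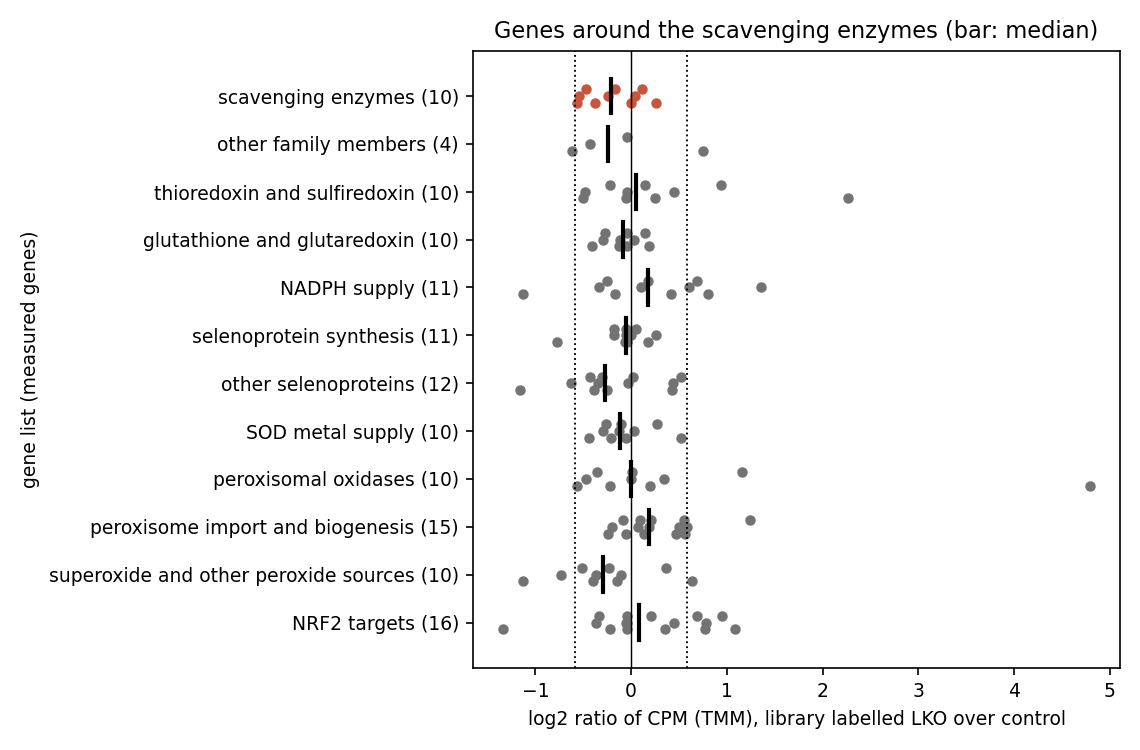
Log2 ratio of TMM-scaled CPM (library labelled LKO relative to control) for each measured gene of the scavenging enzymes (red) and of 11 lists of genes around them, with black bars at the medians and dotted lines at 1.5-fold. The scavenging enzymes span −0.57 to 0.26, and among the thioredoxin genes Txnip lies at 2.26. The point at 4.797 is Hao2, whose position was fixed by the filter on low values.

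Library facts that touch these values are as follows. The libraries held 128201591 and 131843686 counts. Rora had 3701 and 3677 counts, 33.4 and 24.1 CPM, a total over the gene that includes exons outside any deleted part and so checks the genotype in part only. Directions are thus stated for the library labelled LKO. Hepatocyte markers were present, all 10 measured, with summed levels of 171988 and 135226 CPM, of which Alb made up 117952 and 91007. By 1.5-fold 0 were higher and 2 lower. Their median log2 ratio was −0.35, or 0.07 with total-count scaling. On the TMM scale 9 lay below 0 and 1 above (Cyp2e1, at 0.54), where 49.7% of all measured genes were above 0. Kupffer cell markers were lower by 1.5-fold in 6 of 9 measured (145 and 92.8 CPM summed), though Cd163 had a log2 ratio of 0.36. Stellate cell and fibroblast markers were higher by 1.5-fold in 5 of 10 (211 and 296 CPM, of which Dcn made up 158 and 210). Lrat, Acta2 and Rgs5 of that list went the other way, at −0.18, −0.14 and −0.56. Of all measured genes, 10.5% were higher and 9.76% lower by 1.5-fold. Of 11 red blood cell genes 9 were in the tables and 7 measured, but their globin copies repeat the same counts in pairs. Counted once these are 4 measured, 1 of them (Alas2, of heme synthesis) lower by 1.5-fold, and they sum to 696 and 684 CPM. Endothelial markers were past 1.5-fold in 0 of 10 (242 and 240 CPM). Monocyte and neutrophil markers summed to 12.5 and 10.5 CPM with S100a8 at 0 in both libraries, and cholangiocyte markers to 58.6 and 45.9 CPM with Cftr at 0 in both. In bulk RNA, fewer cells of a type and less RNA per cell cannot be told apart. The part of these cell types in the values of the scavenging enzymes was not tested.

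Overlapping genes bear on Prdx5 and Prdx2. The principal transcript of Prdx5 shares 409 of its 1262 bases with exons of Trmt112 on the opposite strand, which had 7384 and 9399 counts and a log2 ratio of −0.11. That of Prdx2 shares 176 bases with Rnaseh2a and 173 with Junb, whose log2 ratios were −0.22 and 0.39. Whether reads were counted by strand is not stated, so reads in the shared stretches cannot be told apart. No other gene had the same pair of counts as any of the 10.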

How the data were processed

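Libraries were made from Trizol-extracted liver RNA (500 ng) with a LEXOGEN mRNA-Seq kit, per the labels' protocols. What the authors deposited is 1 table of raw, whole-number counts by gene symbol for each library. The tools TopHat and edgeR and the build mm10 are named per the submitters' processing notes. Tool versions, the counter, its annotation, strand use and the treatment of multiply aligned reads are not given there. A read counted more than once would make intervals too narrow.

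CPM and ratios were computed from the counts with TMM factors of edgeR 4.0.16 (0.865 and 1.16), and each ratio has a 95% Clopper-Pearson interval conditional on the summed count. With 1 library per genotype there is no test. Members and lists were chosen with earlier results of these data known. Named genes are the members, Rora and, per related list, the 2 highest and 2 lowest ratios and the 2 most abundant per kilobase. Some genes under this rule are not reported here. Pairs of genes and promoter motifs were chosen after values were seen. Transcripts and coordinates are from GENCODE M21 (GRCm38, the assembly of mm10). Transcript length and GC content were found for 99.2% of measured genes, and their trend was removed by lowess (span 0.3) with genes of the ribosome and respiratory chain left out of the curve. Ratios and intervals were tested on simulated Poisson counts with the same library scaling. Such counts hold no PCR copies, reads counted more than once or spread between animals, so the test covers the computation only. Alternatives were 4 other scalings, added counts of 0.5 and 5, other filters and folds, and the trend removal.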

Additional observations from a re-analysis of the deposited data

How the results depend on the processing

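The count of 0 scavenging enzymes past 1.5-fold in either direction was the same with DESeq2 size factors, upper-quartile scaling, totals that omit the 20 most abundant genes and removal of the length and GC trend. With total-count scaling it was 1 higher (Gpx4) and 0 lower. With a fold threshold 25% above 1 it was 0 higher and 4 lower (Prdx1, Prdx5, Sod1 and Prdx2), where 22.8% of measured genes were higher and 22.6% lower. The median log2 ratio of the 10 genes was 0.215 with total-count scaling, −0.0845 when the totals omit the 20 most abundant genes and −0.136 with the trend removed, beside medians over all genes of 0.42, 0.12 and −0.0077. Adding to the counts or changing the filter could hardly move the members, so only the 4 other scalings and the trend removal bear on their signs. Of those 50 log2 ratios 6 had the other sign: Gpx1, Prdx2, Prdx6 and Sod2 with total-count scaling, and Sod2 without the 20 most abundant genes and with the trend removed. Total-count scaling raises every ratio alike, and 34.6% of all measured genes were then higher by 1.5-fold. In the lists, the higher genes then numbered 4 of 10 in the thioredoxin, 1 of 10 in the glutathione and 6 of 11 in the NADPH list. They numbered 2 of 11 in the selenoprotein synthesis, 3 of 12 in the other selenoprotein and 2 of 10 in the metal supply list. Among sources of superoxide and peroxide outside peroxisomes they numbered 2 of 10, and in the NRF2 list 8 of 16. The cause of the other changes was not tested. No paired analysis was possible because there is 1 library per genotype, and no library could be left out. Depth does not limit the members, whose counts were all at least 5291. The lack of replicates does.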
